A study of Mus musculus with 6 samples.

Results

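The 9 genes described here are Yap1, Wwtr1, Tead1, Tead4, Lats2, Ctgf, Cyr61, Ankrd1 and Amotl2, which belong to the Hippo pathway or are known targets of its coactivators YAP and TAZ. They were listed by symbol from the 55291 gene symbols in the count files. No measured value entered the list as a criterion, but earlier results of these data were known when it was made. Ctgf and Cyr61 stand in the files under their newer symbols, Ccn2 and Ccn1. All 9 passed the filter on low counts, as did 17268 genes in total.

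RNA was sequenced from 6 libraries of sorted mammary cells of 6-week-old pubertal female mice on an FVB/N background, with tissue of 5 mice pooled per library (the study's methods give other ages and pool sizes). The 3 groups of 2 libraries were Gpr125-negative cells, TEB-distal Gpr125+ cells from the part of the gland beyond the lymph node, which holds the terminal end buds (TEBs, the growing duct tips), and nipple-proximal Gpr125+ cells from the older ducts. All 3 groups carried the same allele, Adgra3 lz/+, in which lacZ replaces the last exons of 1 copy of Adgra3, the gene of the receptor Gpr125. Cells were sorted as CD49f-high (integrin α6, a basal cell marker) after removal of CD31+, CD45+ and Ter119+ cells, and as positive or negative for β-galactosidase activity, so that the reporter marks activity of the Adgra3 locus and not the receptor itself. The labels name no region for either Gpr125-negative library. Nothing in the labels gives the replicates as independent litters or days. The p-values therefore measure the spread between these pools, which may in part be technical. In the tests below this spread is estimated partly from all genes, not from each gene alone.

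The Hippo pathway is a kinase cascade that restrains growth. The kinases MST1 and MST2, with the adaptor SAV1, activate LATS1 and LATS2, which phosphorylate YAP and TAZ (encoded by Yap1 and Wwtr1) and keep them out of the nucleus. When the cascade is off, YAP and TAZ enter the nucleus, bind TEAD factors and switch on genes such as Ctgf and Cyr61. YAP and TAZ respond to stretch, stiffness and cell contact, and in the mammary gland TAZ is known for its role in basal cells. The pathway acts largely through phosphorylation and localization of proteins, which RNA counts do not measure.

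TEAD factors bind a core motif, GGAATG. It was searched on both strands (the reverse strand reads CATTCC) in the 250 bases before each transcription start in RefSeq's promoters of GRCm38.p6. Of 32851 promoters, 12.6% held at least 1 match and 1.02% held at least 2. For the members, 8 promoters of 6 genes were available, and 5 of the 6 genes had a match, the exception being Lats2. Ctgf, Tead1 and Tead4 had no promoter entry and were not searched. The 12.6% is a share of promoters, whereas the 5 of 6 are genes. A match is a description of letters only, and binding was not measured. The starts are those of RefSeq. For Ankrd1, Amotl2 and Lats2, the bases searched lie inside the GENCODE M21 gene bounds given below, not upstream of the gene's 5' end. The sites are shown because YAP and TAZ reach DNA through TEAD factors, with the motif in capitals, in the gene's direction of transcription:
Cyr61 (103 bases before the start, chr3:145650071-145650100, minus strand): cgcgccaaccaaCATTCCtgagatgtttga
Ankrd1 (210 bases before the start, chr19:36120037-36120066, minus strand): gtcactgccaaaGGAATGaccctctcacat
Ankrd1 (123 bases before the start, chr19:36119950-36119979, minus strand): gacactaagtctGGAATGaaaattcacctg
Amotl2 (65 bases before the start, chr9:102717727-102717756, plus strand): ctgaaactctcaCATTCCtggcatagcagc
Yap1 (141 bases before the start, chr9:8004720-8004749, minus strand): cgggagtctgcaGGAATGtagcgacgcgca
Wwtr1 (170 bases before 1 of its starts, chr3:57576029-57576058, minus strand): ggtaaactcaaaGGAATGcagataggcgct

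The site before Cyr61, which had the highest level per kilobase of exon of the 9 genes in all 6 libraries, lies in the following 200 bases upstream of its start (chr3:145649986-145650185, minus strand of GRCm38.p6), again with the motif in capitals:
Cyr61: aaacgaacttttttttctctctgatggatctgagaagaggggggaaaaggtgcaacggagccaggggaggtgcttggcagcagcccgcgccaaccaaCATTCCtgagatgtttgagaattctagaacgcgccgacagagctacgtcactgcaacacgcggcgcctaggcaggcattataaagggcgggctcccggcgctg

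Some facts of the libraries bear on what follows. Total counts ran from 20134890 to 37296640, so that 3 counts, taken as the smallest level shown, correspond to 0.0804 to 0.149 CPM (each count divided by its library's total and brought to a common scale), for counting error only. The levels below, unlike this floor, are CPM after scaling by edgeR's TMM factors. Adgra3, which should be lowest in the libraries labelled Gpr125-negative, was at 35.7 and 18.6 CPM there, against 15.0 and 4.83 in TEB-distal and 19.2 and 12.3 in nipple-proximal libraries. It therefore goes against the label. Gpr125-negative replicate 1 had the lowest share of counts in mitochondrially encoded genes (0.301%), followed by TEB-distal replicate 2 (0.761%), with 1.35 to 3.15% in the other 4. Of 9 basal markers, all had counts in every library. Of 11 luminal markers, 8 to 11 had counts, so that detection alone does not tell these cell types apart. The sum of 12 endothelial markers was 1436 and 990 CPM in the Gpr125-negative libraries, 21.4 and 26.7 in TEB-distal and 283 and 32.6 in nipple-proximal libraries. In bulk RNA, fewer cells of a type and less RNA per cell cannot be told apart.

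The coactivator genes had similar levels in all 6 libraries. Yap1 (chromosome 9, 7931999 to 8004596, minus strand of GRCm38) was at 79.7 and 96.8 CPM in Gpr125-negative, 101 and 123 in TEB-distal and 94.8 and 113 in nipple-proximal libraries. The highest library was 1.55-fold above the lowest. Both TEB-distal libraries were above both Gpr125-negative ones, and the nipple-proximal libraries overlapped with each of the other groups. Wwtr1 (chromosome 3, 57455649 to 57575910, minus strand), the gene of TAZ, was at 325 and 275 CPM in Gpr125-negative, 296 and 510 in TEB-distal and 435 and 490 in nipple-proximal libraries. It spanned 1.85-fold over the 6 libraries. As means, Yap1 was at 88.2 ± 12.1, 112 ± 16.2 and 104 ± 12.6 CPM and Wwtr1 at 300.05 ± 35.5, 403 ± 151 and 462 ± 39.3 CPM in the 3 groups in this order (SD, n = 2). Both nipple-proximal libraries were above both Gpr125-negative ones, while the TEB-distal libraries held its highest level and one between those of the Gpr125-negative libraries. Per kilobase of exon, Wwtr1 stood at 57.5 to 107 CPM and Yap1 at 8.60 to 13.3, so that the TAZ transcript was the more abundant in all 6 libraries. Since the exon union of Yap1 is long, the levels were also divided by the longest coding transcript, which gave 58.5 to 109 for Wwtr1 and 19.1 to 29.6 for Yap1, in the same order in all 6.

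**Figure D1:**
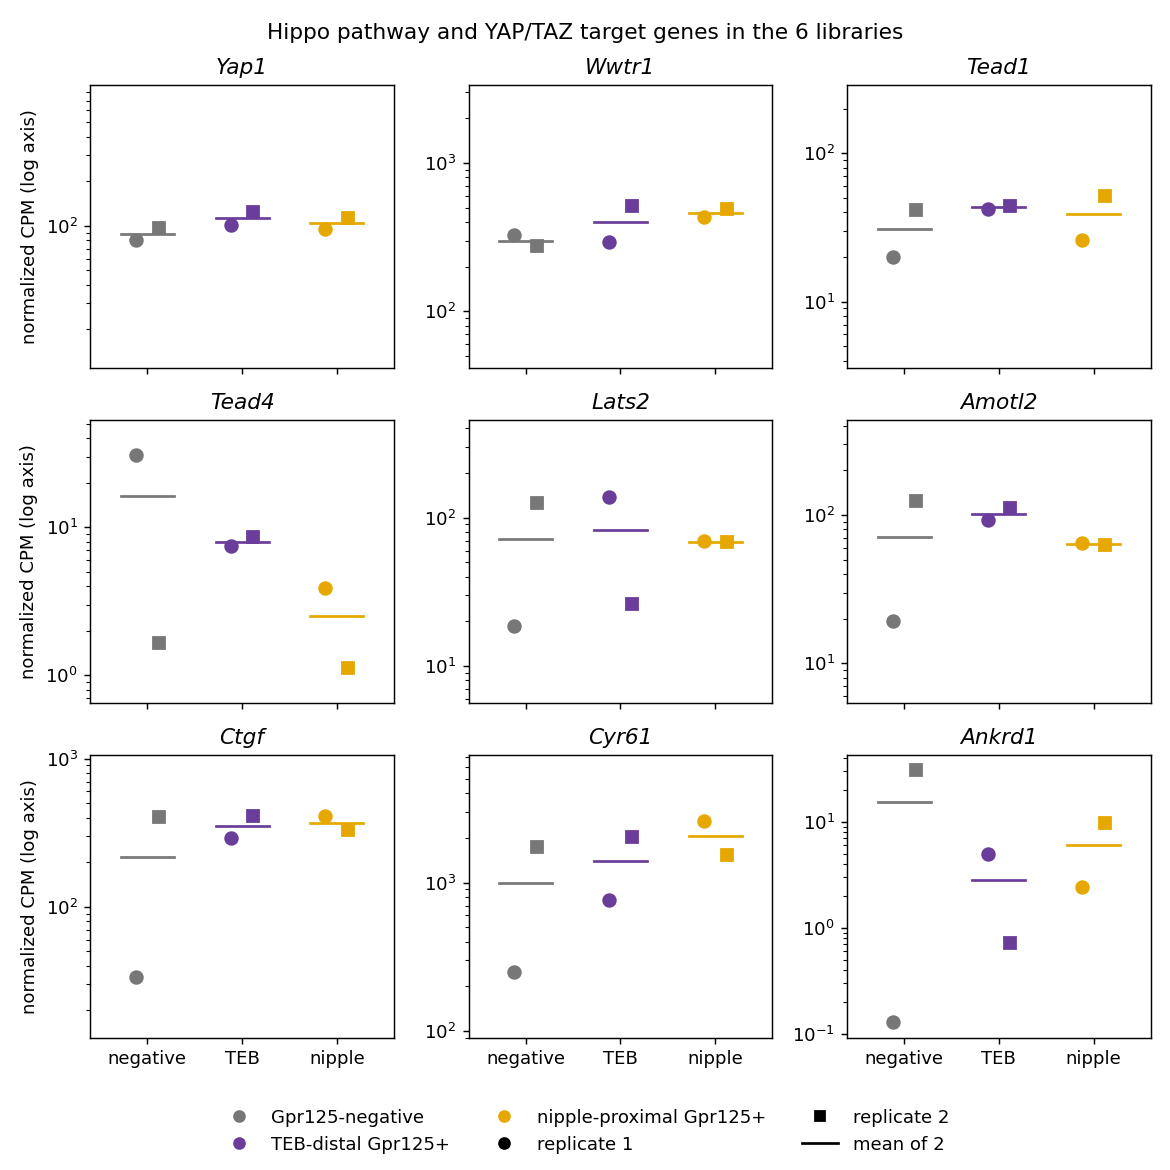
Level of each of the 9 genes in each library (TMM-scaled CPM, log scale), by group, with points for single libraries and lines for the mean of 2. Yap1 and Wwtr1 stayed within 1.55-fold and 1.85-fold over the 6 libraries, whereas Ctgf, Cyr61, Lats2, Amotl2 and Ankrd1 were lowest, and Tead4 highest, in Gpr125-negative replicate 1.

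The DNA-binding partners behaved differently from each other. Tead1 (chromosome 7, 112679318 to 112906807, plus strand) was at 20.03 and 41.4 CPM in Gpr125-negative, 42.1 and 44.4 in TEB-distal and 26.1 and 51.7 in nipple-proximal libraries. Both TEB-distal libraries were above both Gpr125-negative ones, but TEB-distal replicate 1 exceeded Gpr125-negative replicate 2 by far less than the spread between replicates. Tead4 (chromosome 6, 128224288 to 128300823, minus strand) was at 30.6 and 1.66 CPM in Gpr125-negative, 7.45 and 8.55 in TEB-distal and 3.88 and 1.13 in nipple-proximal libraries. The Gpr125-negative libraries held its highest and its second lowest level, an 18.5-fold difference within a group. Within the Gpr125+ cells, both TEB-distal libraries were above both nipple-proximal ones. Per kilobase of exon, Tead1 stood above Tead4 in 5 of 6 libraries, with 3.05 against 0.461 CPM in Gpr125-negative replicate 2 and 3.10 against 2.07 in TEB-distal replicate 1. The order was turned in Gpr125-negative replicate 1, with 1.48 for Tead1 and 8.52 for Tead4. Group means of Tead4 were 16.1 ± 20.5, 8.00 ± 0.776 and 2.505 ± 1.94 CPM (SD, n = 2), so that the SD of the Gpr125-negative group exceeded its mean. The other TEAD genes, Tead2 and Tead3, were at 0.728 to 2.597 and at 0.180 to 0.771 CPM per kilobase.

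**Figure D2:**
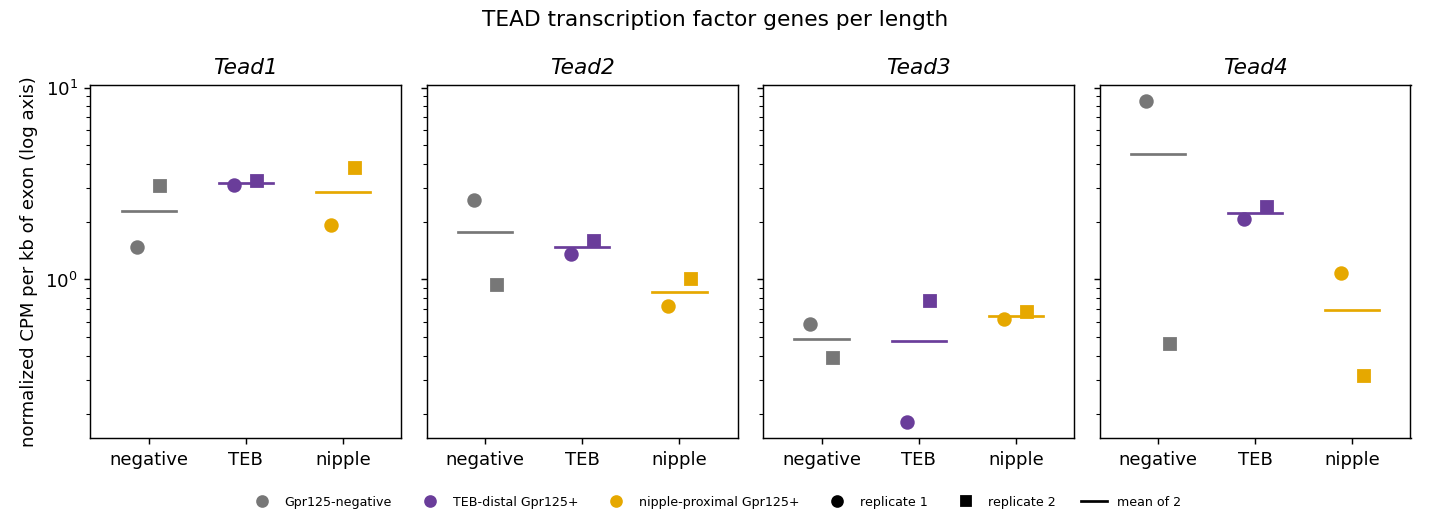
Levels of the 4 TEAD genes per kilobase of exon (TMM-scaled CPM per kilobase, log axis), by group, with points for single libraries and lines for the mean of 2. Tead1 lay above Tead4 in all libraries but Gpr125-negative replicate 1, where Tead4 reached 8.52.

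Lats2 and Amotl2 encode proteins that hold YAP and TAZ back and are themselves switched on by them. Lats2, the kinase (chromosome 14, 57689662 to 57758388, minus strand), was at 18.7 and 126 CPM in Gpr125-negative, 138 and 26.1 in TEB-distal and 69.4 and 68.2 in nipple-proximal libraries. A low and a high library occurred in both of the first groups, whereas the nipple-proximal libraries differed by 1.02-fold. Amotl2 (chromosome 9, 102716672 to 102733418, plus strand), an angiomotin that tethers YAP at cell junctions, was at 19.1 and 124 CPM in Gpr125-negative, 92.7 and 111 in TEB-distal and 64.5 and 63.1 in nipple-proximal libraries. Both TEB-distal libraries were above both nipple-proximal ones, and the Gpr125-negative libraries lay outside the range of all 4 Gpr125+ libraries, one below and one above it.

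Ctgf, Cyr61 and Ankrd1, the classical targets, spanned 12.2-fold, 10.5-fold and 236-fold over the 6 libraries, beside 27.1-fold for Tead4. Ctgf (chromosome 10, 24595442 to 24598683, plus strand), a secreted matricellular protein, was at 33.6 and 401 CPM in Gpr125-negative, 293 and 411 in TEB-distal and 408 and 328 in nipple-proximal libraries. Gpr125-negative replicate 1 was alone at a low level and the other 5 libraries lay within 293 to 411 CPM. Its group means were 217 ± 260, 352 ± 83.4 and 368 ± 56.4 CPM (SD, n = 2). Cyr61 (chromosome 3, 145646976 to 145649981, minus strand), a matricellular protein of the same family, was at 249 and 1748 CPM in Gpr125-negative, 763 and 2018 in TEB-distal and 2619 and 1535 in nipple-proximal libraries. Gpr125-negative replicate 1 was again the lowest, with TEB-distal replicate 1 next. The group means of Cyr61 were 998 ± 1060, 1391 ± 888 and 2077 ± 766 CPM (SD, n = 2). Ankrd1 (chromosome 19, 36111961 to 36120099, minus strand), a muscle-type ankyrin repeat protein, had 6 and 899 counts in Gpr125-negative, 127 and 21 in TEB-distal and 49 and 206 in nipple-proximal libraries. These were 0.129 and 30.5, 4.95 and 0.715, and 2.41 and 9.70 CPM. Both the lowest and the highest level of Ankrd1 were in Gpr125-negative libraries, and its replicates differed by 4.03-fold or more in each group.

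Because reads were counted without strand, those of Yap1 and Ctgf cannot be told apart from reads of the antisense transcripts Gm20416 and Gm15270 where exons overlap. Lats2 likewise shares exon sequence with the same-strand gene model Gm49361. These overlaps are those of GENCODE M21. Whether the annotation used for counting held these models, and whether such reads were counted or dropped, is not given.

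The comparison of TEB-distal Gpr125+ with Gpr125-negative cells asks which genes differ between cells sorted by the reporter near the duct tips and CD49f-high cells without reporter activity. The groups are taken as labelled, although Adgra3 and the sum of endothelial markers were higher in the libraries labelled Gpr125-negative than in the TEB-distal ones. The sum of basal markers was lower there, but not each marker. Acta2, Myh11, Oxtr and Mylk were lower in both Gpr125-negative libraries, Trp63 was higher in both, and Krt5, Krt14, Krt17 and Cnn1 overlapped. None of the 9 genes passed edgeR's quasi-likelihood test at a Benjamini-Hochberg adjusted p (FDR) under 0.1 and a 2-fold change. Over all genes 0% passed, 6.05% had an unadjusted p under 0.05 and 4.33% were called by DESeq2 on the 4 libraries compared. No member was among either of these. The fitted log2 fold change was 0.34 (SE 0.61) for Yap1, 0.42 (SE 0.68) for Wwtr1 and 0.49 (SE 0.72) for Tead1, each with an adjusted p of 1. For the targets it was 0.70 (SE 1.05) for Ctgf and 0.48 (SE 1.05) for Cyr61, and the 95% interval of Ctgf ran from -1.75 to 3.15. The signs of Ctgf and Cyr61 turned to -0.31 and -0.45 without Gpr125-negative replicate 1, and the values were 3.38 and 2.48 without replicate 2. Lats2 was at 0.18 (SE 1.06), Amotl2 at 0.51 (SE 0.88), Tead4 at -1.01 (SE 1.44) and Ankrd1 at -2.43 (SE 2.09). Of these, Lats2, Amotl2 and Tead4 turned sign without Gpr125-negative replicate 1 (-0.77, -0.41 and 2.14), and Ankrd1 turned without replicate 2 (4.40). Yap1 was the only member whose sign held whichever library was left out. Yap1 and Tead1, 2 of the 9, were higher in both libraries with no overlap, against 14.0% of all genes. None was lower in both, against 10.0%.

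The comparison of nipple-proximal Gpr125+ with Gpr125-negative cells takes its reporter-positive cells from the older ducts. As no region is named for the Gpr125-negative libraries, reporter status and region cannot be told apart here or in the comparison above. This comparison shares both control libraries with the one above and is not independent of it. None of the 9 passed, where 0% of all genes passed, 3.55% had an unadjusted p under 0.05 and 2.00% were called by DESeq2 on 4 libraries. Again no member was among these. Cyr61 had the highest fitted log2 fold change, 1.06 (SE 1.06, 95% interval -1.40 to 3.51), followed by Ctgf with 0.76 (SE 1.05) and Wwtr1 with 0.62 (SE 0.68). Tead4 was at the other end with -2.69 (SE 1.53, 95% interval -6.23 to 0.86), and its unadjusted p of 0.118 from edgeR's quasi-likelihood test was the lowest of any member in any comparison (adjusted p = 1). Without Gpr125-negative replicate 1 these values were 0.12 for Cyr61, -0.26 for Ctgf and 0.47 for Tead4. Without replicate 2 they were 3.07, 3.46 and -3.60. The other members were at 0.23 (Yap1), 0.34 (Tead1), -0.07 (Lats2), -1.34 (Ankrd1) and -0.17 (Amotl2). All 5 turned sign when a Gpr125-negative library was left out, Yap1 (-0.038) and Tead1 (-0.23) without replicate 1, and Lats2 (1.89), Ankrd1 (5.51) and Amotl2 (1.74) without replicate 2. Wwtr1, 1 of the 9, was higher in both libraries, against 19.9% of all genes, and none was lower in both, against 10.8%.

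The comparison of TEB-distal with nipple-proximal Gpr125+ cells, which sets the growing tips against the older ducts, uses no Gpr125-negative library for its means. None of the 9 genes passed, where 0% of all genes passed, 2.21% had an unadjusted p under 0.05 and 2.26% were called by DESeq2 on 4 libraries, and no member was among these. Tead4 had a log2 fold change of 1.67 (SE 1.47, 95% interval -1.75 to 5.10, unadjusted p = 0.290, adjusted p = 1 from edgeR). Amotl2 was at 0.67 (SE 0.88, 95% interval -1.37 to 2.71). These SEs rest on the spread over all 6 libraries, with the Gpr125-negative ones included. In edgeR on the 4 compared libraries alone, Tead4 was at 1.70 (SE 1.02) and Amotl2 at 0.71 (SE 0.57). Tead4 and Amotl2, 2 of the 9, were higher in both TEB-distal libraries, against 15.2% of all genes. None of the 9 was lower in both, against 18.3%. Yap1 (0.11), Tead1 (0.15), Wwtr1 (-0.20) and Ctgf (-0.06) were each at less than their SE from 0. So were Lats2 (0.25), Cyr61 (-0.58) and Ankrd1 (-1.09). Tead4 and Amotl2 were the only members whose sign held whichever library was left out. The value of Ctgf turned to 0.06 with either other scaling of the libraries, under which the median of all genes moved from 0.06 to 0.19 or 0.21.

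Over the 3 comparisons, the 95% intervals of all 27 log2 fold changes included 0, and their widths were 2.81 to 9.69 on the log2 scale. Differences of the size of 2-fold were therefore not detectable for any member at the spread of this fit, which edgeR estimates partly from all genes. With 2 libraries against 2, an exact permutation test of a single gene cannot go below p = 0.333 (two-sided). The median log2 fold change of the 9 members was 0.42 in the first, 0.23 in the second and 0.11 in the third of them, beside 0.03, -0.00 and 0.06 over all genes tested. The first 2 medians turned to -0.31 and -0.23 without Gpr125-negative replicate 1 and were 2.13 and 1.74 without replicate 2. The third turned to -0.062 without TEB-distal replicate 2 and to -0.014 without nipple-proximal replicate 1.

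**Figure D3:**
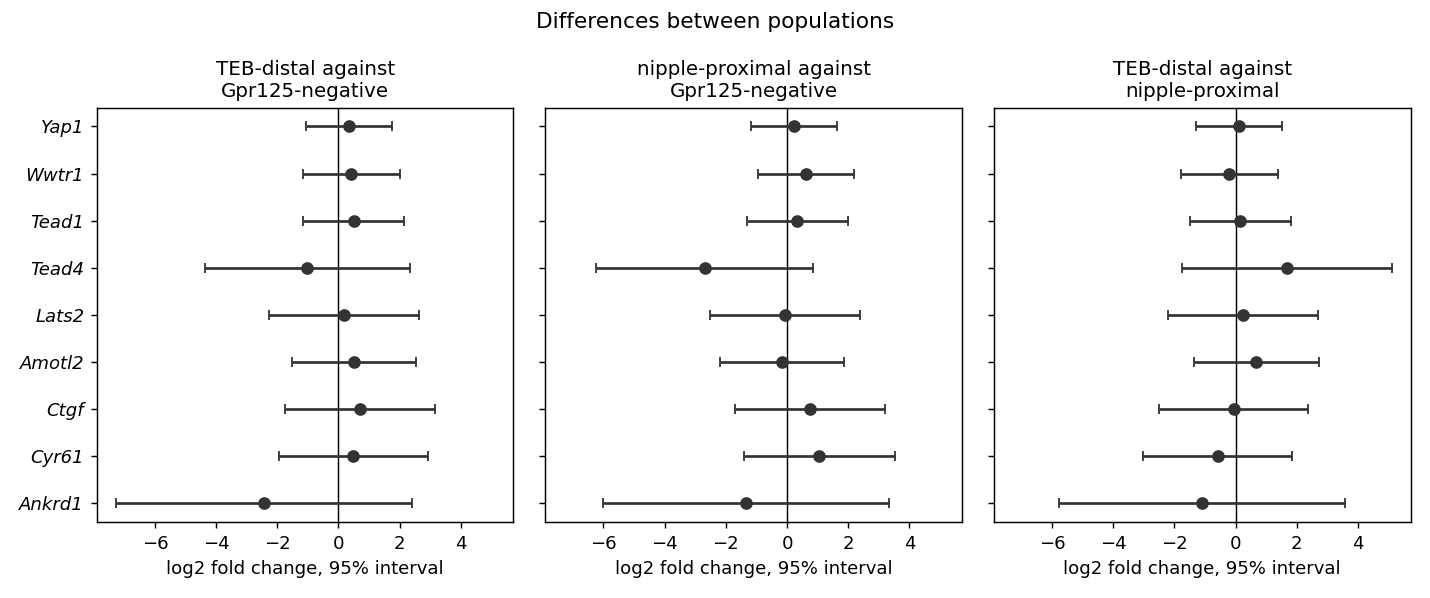
Log2 fold changes of the 9 genes in the 3 comparisons from edgeR's quasi-likelihood fit, with bars for 95% intervals. All 27 intervals include 0, and those of Ankrd1 and Tead4 are the widest in each comparison.

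For 7 of the 9 members, all but Yap1 and Wwtr1, replicates differed most in the Gpr125-negative group. Of the 9 members, 7 were lowest in Gpr125-negative replicate 1, where 23.0% of all genes tested were lowest. The exceptions were Wwtr1, which was lower in Gpr125-negative replicate 2 and TEB-distal replicate 1, and Tead4, which was highest there. Compared with replicate 1, replicate 2 was 11.9-fold higher for Ctgf, 7.03-fold for Cyr61, 6.74-fold for Lats2 and 6.48-fold for Amotl2, and it was 1.22-fold higher for Yap1. For Ankrd1 the ratio was 236, which rests on 6 counts. Replicates differed by at least 4-fold in 6 of the 9 members in the Gpr125-negative group. This held for 32.1% of the 12494 tested genes with more than 3 counts in both libraries of that group. The corresponding counts were 2 (Lats2 and Ankrd1, against 21.5% of 14219 such genes) in the TEB-distal group and 1 (Ankrd1, against 5.13% of 15044) in the nipple-proximal group. Replicate 2 was at least 2-fold higher than replicate 1 in 6 members (66.7%) and in 24.1% of all genes. The summed endothelial markers were 1436 CPM in replicate 1 and 990 CPM in replicate 2, and the share of mitochondrial counts was 0.301% and 2.82%. The part of either in the target levels was not tested.

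The rest of a 22-gene YAP/TAZ target signature, of which Lats2, Ctgf, Cyr61, Ankrd1 and Amotl2 are members, did not all share this pattern. Of its 16 other genes tested, 4 were lowest in Gpr125-negative replicate 1 (F3, Nt5e, Nuak2 and Rbms3) and 7 in replicate 2, where 35.7% of all genes were lowest. F3, tissue factor, came closest to Ctgf, with 14.6 and 135 CPM in Gpr125-negative, 157 and 99.6 in TEB-distal and 80.3 and 92.0 in nipple-proximal libraries. Nuak2, a kinase, was nearly as low in TEB-distal replicate 1 (2.89 CPM) as in Gpr125-negative replicate 1 (2.84 CPM). None of the 21 tested genes passed any of the tests in any comparison. Among the genes with no overlap between groups, Myof, a membrane repair protein, was at 113 and 66.1 CPM in TEB-distal libraries, 40.5 and 21.0 in Gpr125-negative and 40.6 and 32.8 in nipple-proximal ones. Its log2 fold change was 1.54 (SE 0.69, adjusted p = 0.837 from edgeR) against Gpr125-negative and 1.29 (SE 0.68, adjusted p = 1) against nipple-proximal cells. Igfbp3, an IGF binding protein, was at 204 and 323 CPM in nipple-proximal libraries and 135 and 80.3 in TEB-distal ones (log2 fold change -1.29, SE 0.70, adjusted p = 1 from edgeR). Of the signature, 1, 5 and 5 genes were higher and 0, 2 and 7 lower with no overlap in the comparisons in the order above, against 14.0, 19.9 and 15.2% (higher) and 10.0, 10.8 and 18.3% (lower) of all genes. Its median log2 fold change was 0.20, 0.25 and 0.16.

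The 15 upstream kinases and adaptors include MST1 and MST2 (Stk4 and Stk3), the LATS kinases with their cofactors Mob1a and Mob1b, and the TAO kinases, which act on MST. None passed in any comparison. In 7 of the 15 (46.7%), the 2 lowest libraries were Gpr125-negative replicate 1 and TEB-distal replicate 2, against 12.6% of all genes, a pattern noticed after the values were seen. These 7 were Stk3, Lats1, Lats2, Mob1a, Mob1b, Frmd6 and Taok1. Stk3, for example, was at 15.0 and 75.9 CPM in Gpr125-negative, 44.6 and 5.92 in TEB-distal and 19.2 and 34.2 in nipple-proximal libraries. Lats1 was at 19.3 and 48.2, 82.2 and 28.4, and 43.3 and 71.4 CPM in the same order. Gpr125-negative replicate 1 and TEB-distal replicate 2 were the lowest pair in smaller shares of the other lists. These were 10.5% of the junction and polarity genes below, 9.52% of the target signature and 0% of coactivators and DNA-binding partners. The same 2 libraries had the lowest shares of mitochondrial counts, whose part was not tested. Other members of the list went another way: Taok2 was highest in Gpr125-negative replicate 1, at 55.4 CPM, with 19.4 to 36.5 in the other 5. With no overlap, 0, 2 and 3 of the list were higher and 0, 3 and 4 lower in the 3 comparisons, beside the same shares of all genes, 14.0, 19.9 and 15.2% higher and 10.0, 10.8 and 18.3% lower, with medians of -0.05, -0.01 and -0.01.

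Among 19 genes of junctions and polarity that feed into the pathway, 1 had an unadjusted p under 0.05 in 1 of the 3 comparisons, the last, in which 2.21% of all genes did. This was Crb3, an apical polarity protein of epithelial cells, between TEB-distal (10.2 and 7.22 CPM) and nipple-proximal libraries (40.6 and 30.5). Its log2 fold change was -2.03 (SE 0.74, unadjusted p = 0.0258, adjusted p = 1 from edgeR, adjusted p = 0.151 from DESeq2 on the 4 libraries). The Gpr125-negative libraries were at 27.8 and 23.4 CPM. The sum of 11 luminal markers was 2863 and 2702 CPM in TEB-distal and 2914 and 2205 in nipple-proximal libraries, which overlap. Single markers differed more than their sum. Prlr (116 CPM and 0) and Esr1 (31.9 and 0.0681 CPM) were high in TEB-distal replicate 1 and not in replicate 2. Foxa1 was higher and Pgr lower in both TEB-distal libraries than in the nipple-proximal ones. The part of luminal cells in the level of Crb3 was not tested. Fat4, an atypical cadherin, had 0 and 28 counts in Gpr125-negative, 308 and 104 in TEB-distal and 25 and 68 in nipple-proximal libraries. With 0 counts in Gpr125-negative replicate 1, its level there was below that library's floor of 0.0804 CPM before TMM scaling. Its fitted fold changes depend on the prior count. Of the 19, 1, 6 and 3 were higher and 2, 0 and 7 lower with no overlap, where 14.0, 19.9 and 15.2% of all genes were higher and 10.0, 10.8 and 18.3% lower, with medians of 0.25, 0.30 and -0.03.

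Of 10 coactivators and DNA-binding partners, 8 were tested, since Vgll1 and Vgll2 had 0 counts in all 6 libraries. None passed in any comparison. Besides the members, Tead2 was at 3.49 to 12.4 CPM and Tead3 at 1.21 to 5.17 over the 6 libraries. Vgll3, a cofactor that competes with YAP and TAZ for TEAD factors, was at 2.62 and 62.7 CPM in Gpr125-negative, 51.7 and 39.5 in TEB-distal and 24.1 and 60.3 in nipple-proximal libraries. Like Ctgf, it was low in Gpr125-negative replicate 1 and within 24.1 to 62.7 CPM elsewhere. Vgll4, a repressor of TEAD activity, was at 41.5 to 77.8 CPM. With no overlap, 2, 3 and 2 of the 8 were higher and 0 were lower in any comparison, where all genes gave 14.0, 19.9 and 15.2% higher and 10.0, 10.8 and 18.3% lower, with medians of 0.29, 0.36 and 0.11.

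**Figure D4:**
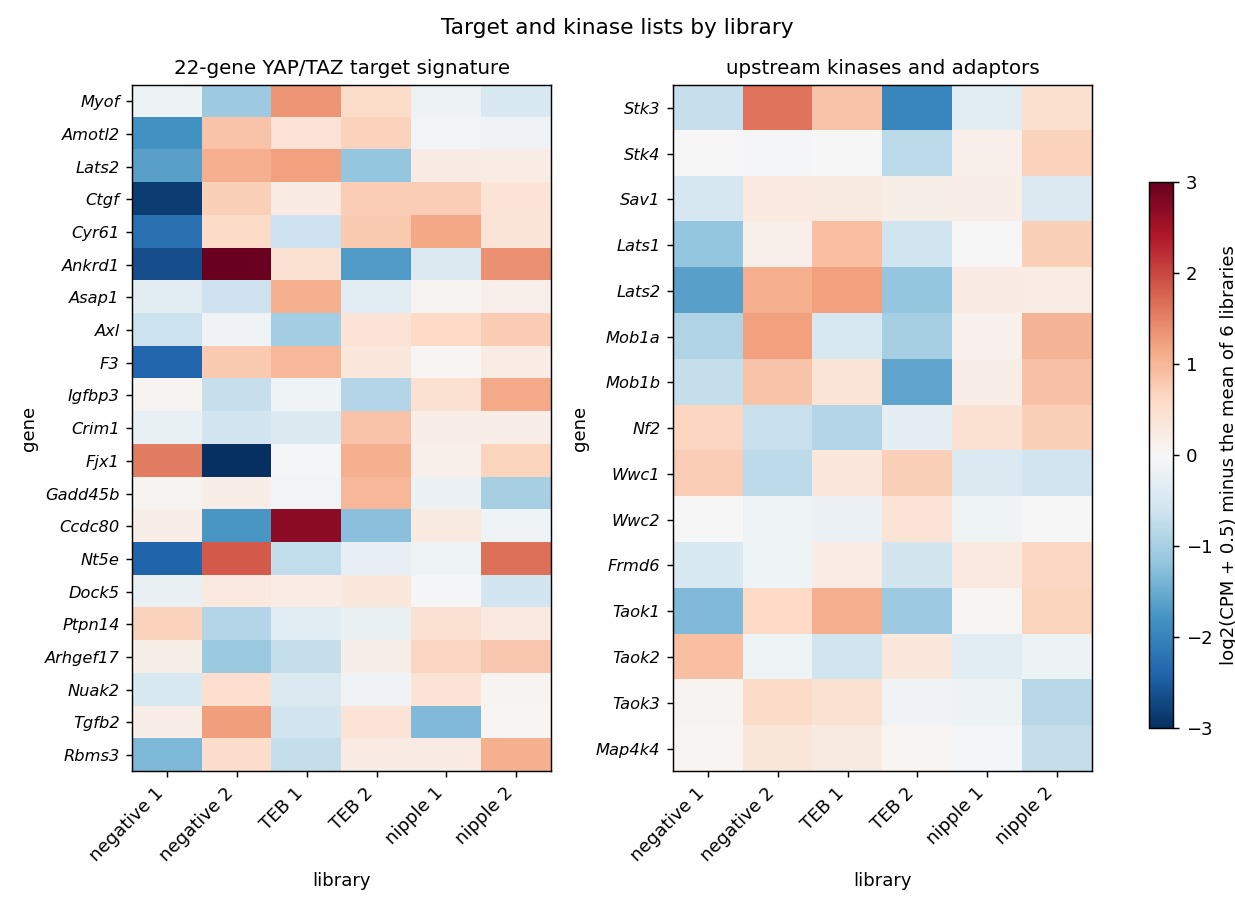
Level of each tested gene of the target signature (left) and of the upstream kinases and adaptors (right) in each library, as log2(CPM + 0.5) minus the gene's mean over the 6 libraries, with the colour scale ending at 3 on either side. The kinases Stk3, Lats1 and Taok1 with Mob1b are low in Gpr125-negative replicate 1 and TEB-distal replicate 2, and the targets Ctgf, Cyr61 and F3 are low in Gpr125-negative replicate 1.

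The likeness of patterns was described by Pearson's correlation of log2 CPM over the 6 libraries, which share their sort, depth and the single library in which many members were low. Ctgf and Cyr61 had the highest value of any pair of members (0.93), followed by Amotl2 and Ctgf (0.92), Lats2 and Ankrd1 (0.89) and Yap1 and Tead1 (0.85). Wwtr1 was nearest to Yap1 (0.64). Tead4 had a negative value with each other member, from -0.17 with Wwtr1 to -0.90 with Ankrd1. Among 8164 genes of at least moderate level, those most like Yap1 were Aif1l (0.99), the myoepithelial gene Cnn1 (0.98) and Trio (0.98). Those most like Ctgf were Errfi1 (0.99), Prelid2 (0.98) and Ripor2 (0.98). Of the 8164 genes, 16 reached 0.95 with Yap1 and 26 with Ctgf. How many would do so by chance over 6 libraries was not computed, so these values show no link between the genes.

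Other cell types and handling were read from marker lists. The sum of 12 immediate early genes, which tissue digestion can induce, was 3080 and 3224 CPM in Gpr125-negative, 2690 and 3878 in TEB-distal and 4569 and 4406 in nipple-proximal libraries. Single genes moved apart between the Gpr125-negative libraries, with Atf3 at 110 and 646 CPM and Fos at 459 and 231, and of the 12, 1 was at least 2-fold higher and 3 at least 2-fold lower in replicate 2 (ratios of marker genes were taken after adding 0.5 CPM). The sum of 8 pericyte markers was 4.71 to 25.5 CPM and that of 10 fibroblast markers 69.7 to 254. Both were higher in Gpr125-negative replicate 2 (25.5 and 254 CPM) than in replicate 1 (10.0 and 120 CPM). Of the 8 pericyte markers, 2 were at least 2-fold higher and 2 at least 2-fold lower in replicate 2, with Rgs5 at 0 and 18.5 CPM and Kcnj8 at 0 in both. Of the 10 fibroblast markers, 2 were higher by this measure, Dcn (17.3 and 122 CPM) and Lum (0.732 and 19.5 CPM), and 4 were lower, among them Col1a1 (3.49 CPM and 0), while Fap was at 0 in all 6 libraries. The part of these markers and of the immediate early genes in the target levels was not tested. The sum of 10 leukocyte markers was 68.0 to 298 CPM. The sum of the 9 basal markers was 3379 and 3501 CPM in Gpr125-negative, 3804 and 21922 in TEB-distal and 9278 and 14600 in nipple-proximal libraries. Its genes did not move together between the Gpr125-negative replicates. Krt5 (839 and 215 CPM) and Trp63 (58.1 and 8.40) were lower in replicate 2, and Cnn1 (14.4 and 180), Acta2 (190 and 511) and Myh11 (62.7 and 143) were at least 2-fold higher there.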

How the data were processed

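The authors aligned SMART-Seq HT reads to mm10 with STAR (2.7.3 in the submitters' processing notes) and counted reads per gene without strand with HTSeq. The deposited counts are whole numbers for each library, with no normalization and no molecular identifiers. The annotation release is not given in the sources used here. Samples were grouped by their titles, with 2 libraries in each of 3 groups. Counts were analysed with R 4.3.3 and edgeR 4.0.16 (TMM, filterByExpr by group, robust glmQLFit, glmQLFTest) in a single model of the 6 libraries and 17268 genes. Calls needed an FDR under 0.1 and a 2-fold change, the study's thresholds. SEs were taken from the F statistic, and log2 CPM for correlations used a prior count of 2. DESeq2 1.42.0, other scalings, no filter, 4 libraries only, a replicate block and leaving out each library were alternatives. Division by the longest coding transcript was chosen on seeing the data. The code was tested on simulated counts. Coordinates and exon lengths are from GENCODE M21 (GRCm38) and promoters from RefSeq.

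The members, pathway lists, marker lists and tests were chosen with earlier results of these data known. Besides the members, the genes named were, per list and comparison, chosen among those with no overlap between groups, at most 2 at each end of the fold change, and, as most alike, the 3 genes with the highest correlation with Yap1 and with Ctgf at a mean log2 CPM of at least 3. Not all of these are given values. Marker genes given single values, F3, Nuak2, Vgll3, Stk3, Lats1, Tead2, Tead3 and the other genes of a shared low pattern were named after their values were seen. Depth sets a floor of 0.0804 to 0.149 CPM per library at 3 counts, before TMM scaling.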

Additional observations from a re-analysis of the deposited data

How the results depend on the processing

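No member was called under any alternative. Of 351 values (a member in a comparison under an alternative), 318 kept their direction and 33 reversed, and the lowest adjusted p was 0.194 (Ankrd1, TEB-distal against Gpr125-negative without Gpr125-negative replicate 1). The number of genes called over the whole table was 0 in edgeR's quasi-likelihood test and, for TEB-distal and nipple-proximal against Gpr125-negative and for TEB-distal against nipple-proximal cells, 943, 321 and 133 with DESeq2 on all 6 libraries, 682, 317 and 357 with DESeq2 on 4, and 137, 58 and 39 with all genes of at least 1 count. Leaving out 1 library gave 0 to 747, 0 to 335 and 0 to 12 genes. The highest 2 counts against Gpr125-negative cells, 747 and 335, were without Gpr125-negative replicate 1. The 12 were without nipple-proximal replicate 2, and 45 and 46 were called for TEB-distal against Gpr125-negative cells without nipple-proximal replicate 1 and 2. The median of the 9 members ranged from -0.31 to 2.13 and from -0.23 to 1.74 against Gpr125-negative cells (-0.062 to 0.22 between the Gpr125+ groups), in the first 2 the lower end without Gpr125-negative replicate 1 and the upper without replicate 2.

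For TEB-distal against Gpr125-negative cells, leaving out 1 library gave Tead1 -0.067 to 1.10, Tead4 -1.94 to 2.14, Lats2 -1.51 to 2.13, Ctgf -0.31 to 3.38, Cyr61 -0.45 to 2.48, Amotl2 -0.41 to 2.40, Ankrd1 -4.46 to 4.40 and Wwtr1 -0.026 to 0.76. For nipple-proximal against Gpr125-negative cells it gave Yap1 -0.038 to 0.39, Tead1 -0.23 to 0.96, Tead4 -3.84 to 0.47, Ctgf -0.26 to 3.46, Lats2 -1.01 to 1.89, Ankrd1 -2.65 to 5.51 and Amotl2 -1.09 to 1.74. For TEB-distal against nipple-proximal cells it gave Wwtr1 -0.66 to 0.21, Lats2 -1.33 to 0.98, Ctgf -0.35 to 0.22, Cyr61 -1.46 to 0.019, Yap1 -0.062 to 0.32, Tead1 -0.26 to 0.71 and Ankrd1 -3.00 to 0.22. Where a group kept 1 library, that library was assumed to vary like the others. Ctgf in this last comparison reversed to 0.056 with DESeq2 on 6 libraries, 0.063 with DESeq2 size factors and 0.064 with total counts. The cause was not tested, but these settings moved the median of all genes by over 0.1.

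The labels do not say whether samples with the same replicate number belong together. Deviations from the group means correlated over genes at -0.03, 0.19 and -0.00 for the 3 pairs of groups. With 1 difference between replicates per group, these values can neither show nor exclude a shared litter or day. With the replicate block 0 genes were called in each comparison, and Tead4 (TEB-distal against Gpr125-negative) reversed to 0.087, Amotl2 (nipple-proximal against Gpr125-negative) to 0.21 and Ankrd1 (TEB-distal against nipple-proximal) to 0.12. The spread as edgeR estimates it, partly from all genes, limits every member, including Yap1, whose replicates differed by 1.19- to 1.23-fold within groups. Ankrd1 also had only 6 counts in Gpr125-negative replicate 1, although that library had the highest total count.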
